A study of Homo sapiens with 12 samples.

Results

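The keratins described here are KRT7, KRT8, KRT80 and KRT81 of type II and KRT18 and KRT19 of type I, found in the deposited count table by their Ensembl identifiers. They are 6 of the 7 keratins named for this work, and 6 of the 39 keratin genes of types I and II that had a row among the 20595 genes. The other named one, KRT10, was not analysed here. The samples were 12 RNA-seq libraries of 2 established human lung adenocarcinoma (LUAD) cell lines, A549 and H1792, with 3 replicates in each of 4 groups. Both lines carry an MDM2 amplification (ampl) according to the study, A549 with wild-type (WT) p53 and H1792 with mutant p53 in most of its text, whereas the passage that introduces the RNA-seq swaps the p53 status of the lines. Cells of each line received DMSO or RG7112, a small molecule of the nutlin family that blocks the p53-binding pocket of MDM2, at 1 µM for 48 h. The column names of the table give the dose as 0.1 µM, and the dose of the labels was used. Each genotype was represented by 1 cell line, so genotype and line cannot be told apart. The study's methods name different culture media for the lines, whereas the labels name the same one, so medium and line may also differ together. The comparisons asked how keratin mRNA differed between the untreated lines, how it changed with RG7112 in each line, and whether that change differed between them.

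Keratins are the intermediate filament proteins of epithelial cells. A type I and a type II keratin pair as an obligate heterodimer, and the pairs assemble into filaments that are anchored to desmosomes and hemidesmosomes and protect the cell against mechanical stress. Simple epithelia, such as those that line the airways, alveoli and glands, rely on KRT8 with KRT18 as the primary pair and add KRT7 and KRT19, and pathologists use these keratins to recognise adenocarcinomas. KRT80 is found in many epithelia in association with desmosomes, and KRT81 belongs to the hair keratins, which build the hair shaft.

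The 4 type II genes and KRT18 lie in the keratin cluster of chromosome 12, and KRT19 lies in that of chromosome 17. In GRCh38 (GENCODE v29), KRT80 spans chr12:52168996-52192000 on the minus strand, KRT7 chr12:52232520-52252186 on the plus strand, KRT81 chr12:52285913-52291534 on the minus strand and KRT8 chr12:52897187-52949954 on the minus strand. KRT18 spans chr12:52948871-52952901 on the plus strand and meets the start of KRT8, and KRT19 spans chr17:41523617-41528308 on the minus strand. Over their whole coding sequences, KRT7 and KRT8 shared 73.7% of aligned bases, KRT18 and KRT19 shared 64.4%, and the partners KRT8 and KRT18 shared 58.9%. Their transcripts were rich in G and C, with a mean of 57.3% to 62.8% against a median of 50.2% over the 17982 genes of the table found in GENCODE v29.

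All 6 keratins were lower in H1792 than in A549 without the drug, KRT81 by a factor that left 5 to 16 counts per H1792 sample. With RG7112, KRT19 rose in A549 cells, to 2.40 times its DMSO level, and KRT18, KRT7, KRT8 and KRT19 fell in H1792 cells. In these bulk libraries, fewer cells expressing a gene and less mRNA per cell cannot be told apart. The labels do not say that replicates came from separate cultures, so p-values measure only the spread between these samples. Counts per sample totalled 2011916 to 6218825, at which 3 counts are worth 0.4635 to 1.425 CPM (TMM-normalized counts scaled to a common library total). CDKN1A, a p53 target used here as a check of the treatment, had 37.1 ± 11.3 CPM with DMSO and 444 ± 429 with RG7112 in A549, and 7.62 ± 6.08 and 7.88 ± 3.61 in H1792 (SD, n = 3). MDM2 itself, another p53 target, had 8.52 ± 4.98 and 69.0 ± 9.25 CPM in A549 and 11.2 ± 4.50 and 10.2 ± 1.49 in H1792. The A549 mean of CDKN1A with RG7112 rests on replicate 3, at 939 CPM against 202 and 189 in replicates 1 and 2. Both p53 targets were higher with the drug in every A549 sample, and their ranges overlapped between treatments in H1792.

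**Figure D1:**
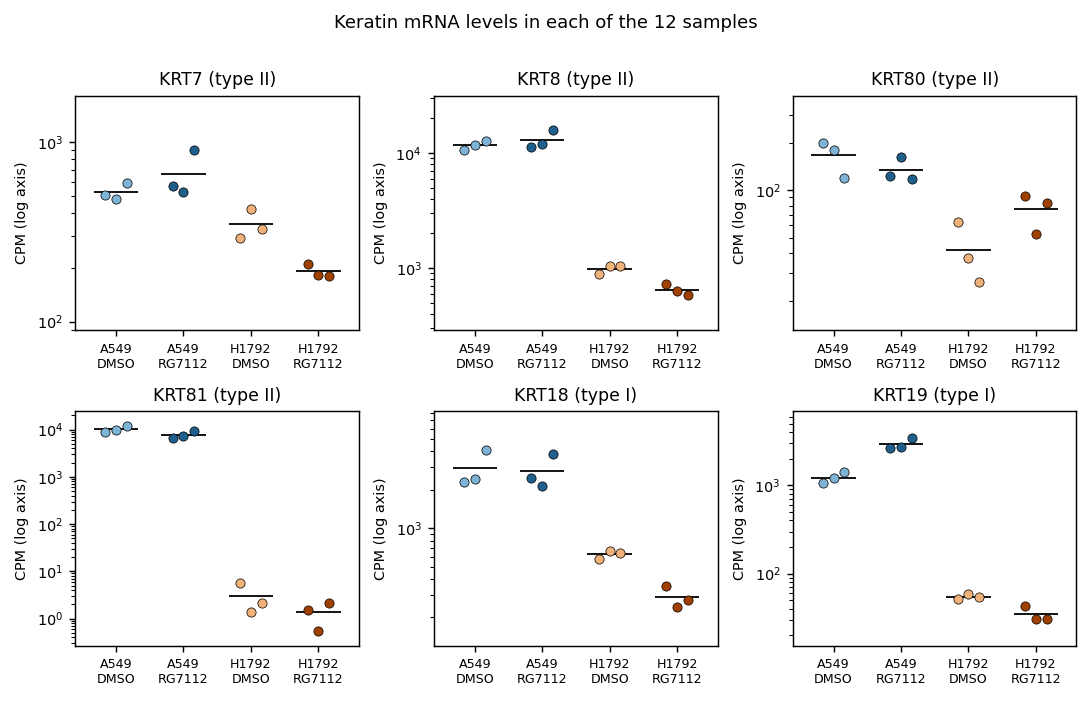
CPM of each keratin (y axis, logarithmic) in the 12 samples, grouped on the x axis by cell line and treatment, with 1 point per replicate and a line at the mean of 3. KRT81 lies between 6761 and 12160 CPM in A549 and at or below 5.63 CPM in H1792, and KRT19 is the keratin whose A549 samples separate by treatment.

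KRT8, the type II keratin that simple epithelial cells make first, had the highest level per transcript length of all members in both lines. In A549 it had 10540, 11810 and 12790 CPM with DMSO, and 11380, 11990 and 15820 with RG7112. In H1792 it had 895, 1035 and 1041 CPM with DMSO, and 726, 633 and 579 with RG7112. The A549 treatments overlapped, whereas in H1792 every RG7112 sample lay under every DMSO sample. KRT8 was thus 12.2-fold lower in untreated H1792 (log2 fold change −3.61 ± 0.11, SE, adjusted p = 6.56e-06). With RG7112 it fell by 0.54 ± 0.10 on the log2 scale in H1792 (adjusted p = 0.00894), and in A549 the difference was 0.16 ± 0.17 (adjusted p = 0.626). Per kilobase of its reference transcript, KRT8 ranked 8th to 10th of all genes with a length in the A549 samples and 144th to 189th in H1792.

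KRT7, a type II keratin of simple and glandular epithelia, differed least of the members between the untreated lines. In A549 it had 504, 479 and 593 CPM with DMSO and 569, 524 and 904.5 with RG7112. In H1792 it had 293, 422 and 329 CPM with DMSO and 210, 182 and 180 with RG7112. The highest A549 value belonged to RG7112 replicate 3, and the H1792 treatments did not overlap. Untreated H1792 was 1.56-fold lower (log2 fold change −0.64 ± 0.15, adjusted p = 0.0107). KRT7 fell by 0.79 ± 0.13 in H1792 with RG7112 (adjusted p = 0.00658), against a difference of 0.34 ± 0.22 in A549 (adjusted p = 0.416), which was 0.063 without RG7112 replicate 3 (adjusted p = 0.825).

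KRT80, the desmosome-associated type II keratin, was a minor member in both lines. In A549 it had 199, 179 and 120.0 CPM with DMSO and 124, 162 and 118 with RG7112. In H1792 it had 63.0, 37.1 and 26.1 CPM with DMSO and 92.3, 52.9 and 83.6 with RG7112. Ranges overlapped between treatments in both lines, and no H1792 sample reached the lowest A549 sample. KRT80 was 4.08-fold lower in untreated H1792 (log2 fold change −2.03 ± 0.35, adjusted p = 0.00332). Its response did not pass the test in H1792 (log2 fold change 0.93 ± 0.36, adjusted p = 0.0884) or in A549 (−0.31 ± 0.23, adjusted p = 0.474), and it was the only tested member whose H1792 estimate was above 0. Without H1792 DMSO replicate 1, the highest of its group, the H1792 difference passed (1.34, adjusted p = 0.0264), and DESeq2 also called it (0.93, adjusted p = 0.0385).

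KRT81, the hair keratin, had the widest span. In A549 it had 8831, 9784 and 12160 CPM with DMSO and 6761, 7375 and 9334 with RG7112. In H1792 it had 5.63, 1.38 and 2.18 CPM with DMSO, from 16, 6 and 5 counts, and 1.55, 0.532 and 2.09 CPM with RG7112, from 6, 3 and 9 counts. Per transcript length, this hair keratin overlapped with KRT8 in untreated A549, and it was near the limit of 3 counts in H1792. The fitted log2 fold change of untreated H1792 over A549 was −11.84 ± 0.40 (adjusted p = 8.22e-06), its size set by these few counts. In A549 the samples with DMSO and RG7112 overlapped, with a log2 fold change of −0.39 ± 0.18 (adjusted p = 0.251), and in H1792 KRT81 had too few counts to be tested. The A549 difference was of like size without both samples numbered 3, and then passed the test (−0.39 ± 0.07, adjusted p = 0.0411), an alternative chosen after seeing the data.

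KRT18, the type I partner of KRT8, fell most in H1792 with RG7112 among the members that could be tested there. In A549 it had 2318, 2421 and 4123 CPM with DMSO and 2458, 2146 and 3808 with RG7112. In H1792 it had 570.0, 663 and 638 CPM with DMSO and 350, 240 and 273 with RG7112. The 2 A549 samples numbered 3 stood above the other 4, whatever the treatment, and the H1792 treatments did not overlap. KRT18 was 4.87-fold lower in untreated H1792 (log2 fold change −2.29 ± 0.22, adjusted p = 0.000313). With RG7112 it fell by 1.04 ± 0.14 in H1792 (adjusted p = 0.00437), and in A549 the difference was −0.07 ± 0.30 (adjusted p = 0.912). Leaving out A549 DMSO replicate 3 turned the A549 estimate to 0.25 (adjusted p = 0.616).

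KRT19, the smallest keratin, which lacks most of the tail domain, was the one whose responses were called in both lines, in opposite directions. In A549 it had 1056, 1207 and 1415 CPM with DMSO and 2628, 2751 and 3458 with RG7112. In H1792 it had 51.0, 59.0 and 54.4 CPM with DMSO and 42.8, 30.7 and 30.4 with RG7112. The treatments overlapped in neither line. KRT19 rose by 1.27 ± 0.17 on the log2 scale in A549 (adjusted p = 0.00602) and fell by 0.59 ± 0.17 in H1792 (adjusted p = 0.0371). The fall in H1792 did not pass the test without DMSO replicate 1, 2 or 3 or without RG7112 replicate 2 or 3 in turn (adjusted p 0.0611 to 0.115), and the rise in A549 passed whichever single sample was left out. KRT19 was 23.1-fold lower in untreated H1792 (log2 fold change −4.53 ± 0.14, adjusted p = 6.56e-06).

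**Figure D2:**
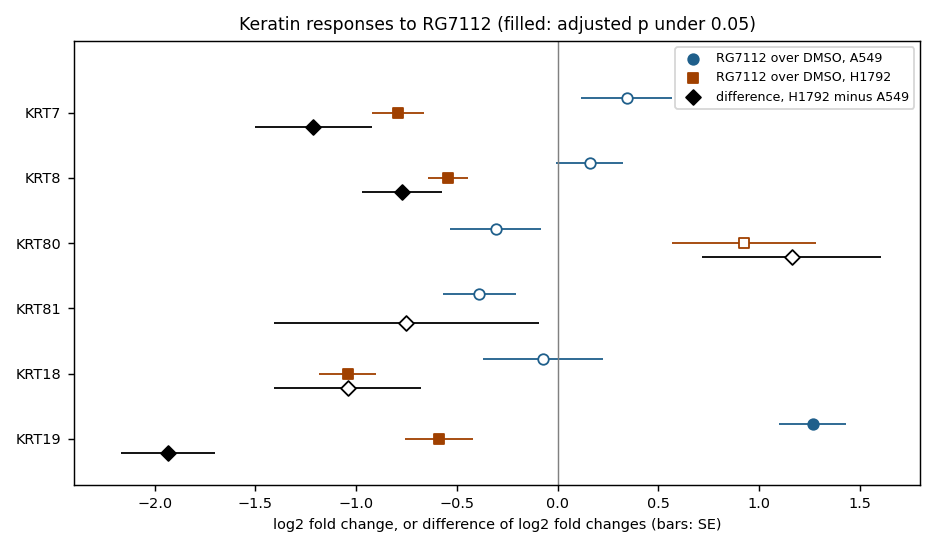
Log2 fold change of each keratin with RG7112 in A549 (circles) and in H1792 (squares), and the difference between them (diamonds), on the x axis, with SE bars; filled symbols have an adjusted p under 0.05. KRT19 is at 1.27 in A549 and −0.59 in H1792, and KRT81 could not be tested in H1792.

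Between the untreated lines, 6 of 6 members were called lower in H1792, where 26.5% of the 10330 genes tested were called lower and 23.2% higher. All but KRT7 were also DEGs, which have an absolute log2 fold change over 1 besides an adjusted p under 0.05, against 35.5% of genes. The CPM of the lines did not overlap for any of the 6, which held for 61.1% of genes. In A549, 1 of 6 members was called higher with RG7112 (4.35% of 10739 genes) and 0 lower (4.03%). By an unadjusted p under 0.05 as well, KRT19 was the only call, and DESeq2 gave the same count. KRT19 was also a DEG (6.2% of genes) and the only member whose treatments did not overlap (32.4%). In H1792, 4 of 5 tested members were called lower (16.5% of 9914 genes) and 0 higher (17.7%); KRT80 was higher at an unadjusted p of 0.0375. Only KRT18 was a DEG (14.6%), and 4 of 5 did not overlap between treatments (53.3% of genes). The comparison of the untreated lines and the responses share the DMSO samples.

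The response itself differed between the lines for 3 of 6 members, all of them lower in H1792 than in A549, where 10.4% of 11666 genes were lower in this sense and 11.4% higher. The difference of log2 fold changes, H1792 minus A549, was −1.93 ± 0.23 for KRT19 (adjusted p = 0.00046), −1.21 ± 0.29 for KRT7 (adjusted p = 0.0149) and −0.77 ± 0.20 for KRT8 (adjusted p = 0.0198). The difference did not pass for KRT18 (−1.04 ± 0.36, adjusted p = 0.0637), KRT80 (1.16 ± 0.45, adjusted p = 0.0864) and KRT81 (−0.75 ± 0.66, adjusted p = 0.442). Without both A549 samples numbered 3, whose KRT18 stood apart, KRT18 passed as well (−1.07, adjusted p = 0.00737). It also passed with DESeq2 (−1.10, adjusted p = 0.0209) and with at least 10 counts in every sample (adjusted p = 0.0499). Fold change rose with the GC content of transcripts across genes in A549 (Spearman's rho 0.251) and fell with it in H1792 (−0.444), a description over 9941 and 9165 genes of the same libraries. With a correction for GC content, the H1792 falls of KRT18 (−0.86), KRT7 (−0.55) and KRT8 (−0.35) were still called, that of KRT19 was −0.30 (adjusted p = 0.184), and the rise of KRT19 in A549 was still called. The differences between the lines became −0.70 for KRT7 (adjusted p = 0.0598) and −0.35 for KRT8 (adjusted p = 0.141) under the same correction, that of KRT19 still passed, and that of KRT80 now passed (1.54, adjusted p = 0.0425). The KRT80 difference also passed with library size only (1.56, adjusted p = 0.0388) and with at least 10 counts in every sample (1.27, adjusted p = 0.0469). With the GC correction the A549 difference of KRT81 was −0.64 (adjusted p = 0.031). Scaling by library size alone put the median of all genes in H1792 at 0.27, against 0.0098 with TMM. Under it the falls of KRT18 (−0.79), KRT7 (−0.53) and KRT8 (−0.28) were still called, that of KRT19 was not (−0.33, adjusted p = 0.14), and KRT80 was called higher (1.18, adjusted p = 0.0444).

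**Figure D3:**
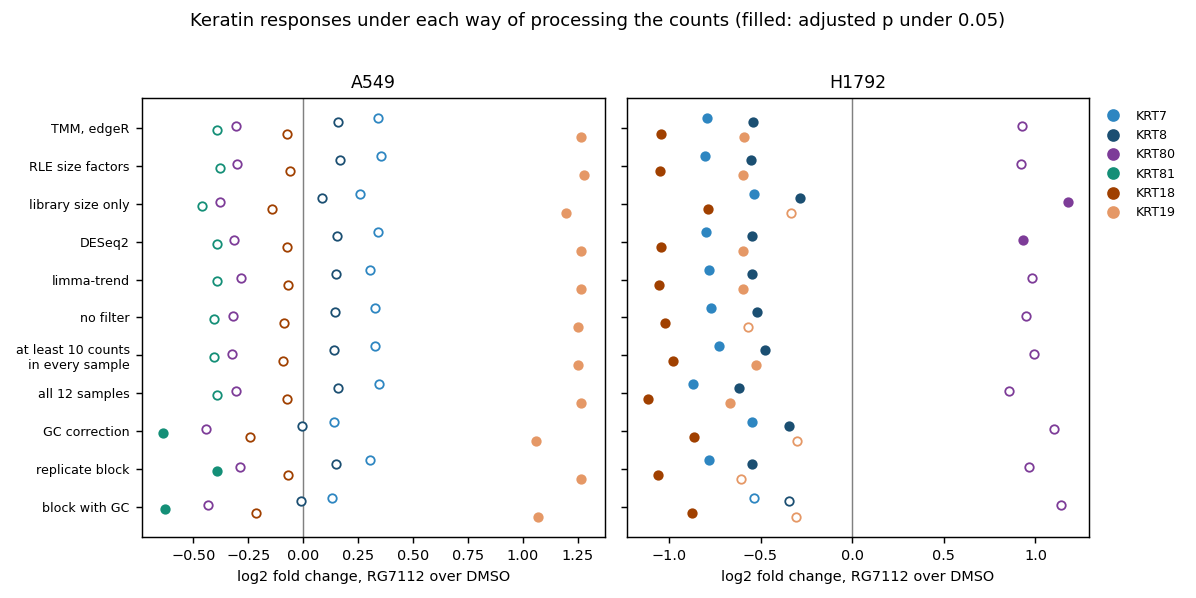
Log2 fold change of each keratin with RG7112 (x axis) in A549 and H1792 under 11 ways of processing the counts (y axis); filled points have an adjusted p under 0.05. KRT19 in A549 and KRT18 in H1792 are called in every row, whereas KRT81 in A549 and KRT7, KRT8, KRT19 and KRT80 in H1792 change their call in at least 1 row.

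The lines also differed in their keratin make-up. Levels of different genes are compared here as CPM per kilobase of the reference transcript. Shares and ratios of the keratins cover only the 39 of 54 listed keratin genes that had a row. These were 17 of 28 genes of type I and 22 of 26 of type II, and KRT10 was not among them. Untreated A549 had 6224 ± 599 of these units of KRT8, 5318 ± 889 of KRT81, 1891 ± 649 of KRT18, 882 ± 130 of KRT19, 299.5 ± 34.3 of KRT7 and 43.0 ± 10.6 of KRT80. KRT8 and KRT81 overlapped among these samples, and the other neighbours in the order did not. Untreated H1792 had 526 ± 43.8 of KRT8, 399 ± 30.7 of KRT18, 198.5 ± 38.0 of KRT7, 39.4 ± 2.88 of KRT19, 10.9 ± 4.90 of KRT80 and 1.59 ± 1.17 of KRT81, and no neighbours overlapped. KRT8 held 42.1% ± 2.6 of the keratin signal per length in A549 and 44.7% ± 1.4 in H1792. KRT81 was next in A549 at 35.8% ± 0.5, and KRT18 was next in H1792 at 33.9% ± 0.4.

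With RG7112, the share of KRT19 in A549 was higher and that of KRT81 lower. Shares have a fixed total and so do not move independently, and no share was tested. KRT19 went from 5.94% ± 0.12 to 13.8% ± 0.5 of the keratin signal and KRT81 from 35.8% to 26.3% ± 0.8, while KRT18 was at 12.5% ± 2.4 and 11.5% ± 1.6. KRT18 exceeded KRT19 per length in every DMSO sample, by a ratio of 1.95, 1.79 and 2.59, and fell under it in every RG7112 sample, at 0.832, 0.694 and 0.980. Type II keratins exceeded type I keratins by a ratio of 3.74 to 4.90 in untreated A549 and 2.82 to 3.18 with RG7112. In H1792 the same ratio was 1.65 to 1.72 with DMSO and 2.08 to 2.58 with RG7112. The treatments did not overlap in either line, and moved apart in opposite directions. The 39 keratin genes with a row together took 2.83% ± 0.23 of the counts of untreated A549 and 2.75% ± 0.29 with RG7112. In H1792 they took 0.180% ± 0.009 and 0.136% ± 0.013. Vimentin (VIM), the intermediate filament protein of mesenchymal cells, stood at 0.117 ± 0.014 of the keratin level per length in untreated A549 and at 5.16 ± 0.56 in untreated H1792.

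**Figure D4:**
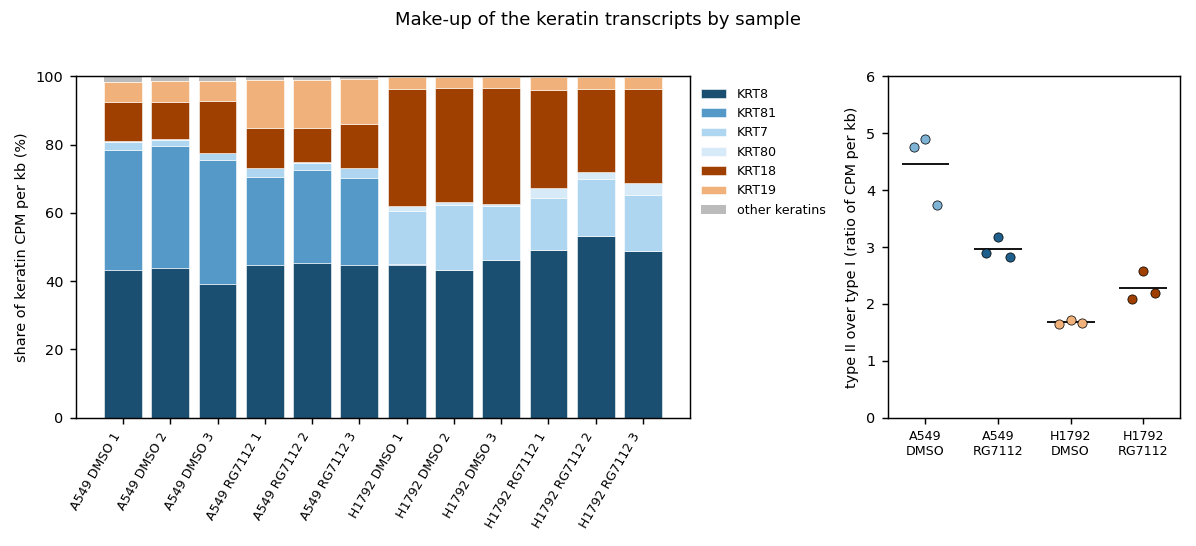
Left, share of the keratin signal per length (%) by gene in each of the 12 samples; right, the ratio of type II to type I keratins per length, with 1 point per sample and a line at the group mean. KRT81 fills 35.8% of the untreated A549 bars on average and 0.142% of the H1792 bars, and the ratio separates by treatment in both lines.

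How far each keratin can be read on its own depends on what else holds its sequence. The counting program assigns reads through stretches of 31 bases. Of those of the reference transcript of KRT18, 60.4% also occur in annotated pseudogenes and 26.8% in other genes of the table, chiefly KRT8, with which it overlaps by 525 exon bases on the opposite strand. For KRT8, 55.5% occur in pseudogenes. Whether the counting used strand is not stated in the sources used here, so KRT8 and KRT18 are uncertain where they overlap. The share found in neither pseudogenes nor other genes of the table was 95.1% for KRT7, 98.5% for KRT80 and 88.6% for KRT19, but 11.4% of the stretches of KRT7 also occur in its antisense RNA KRT7-AS, which had no row used here. For KRT81 the share found in neither was 46.8%, with 43.2% also in KRT86, 18.4% in KRT83 and 13.1% in KRT85, which are hair keratins of the same cluster. The hair keratins KRT82 and KRT84 held 2.2% and 1.5%. The coding sequence of KRT81 shares 93.9% of aligned bases with KRT86, 93.3% with KRT83 and 85.9% with KRT85.

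The contrast within this group is shown by 2 windows of 60 coding bases. The first, in exon 1, is where KRT81, KRT86, KRT83 and KRT85 were most alike, with the single differing column in capitals (GRCh38, given 5′ to 3′ on the strand of the gene).
KRT81, chr12:52291184-52291243, minus strand: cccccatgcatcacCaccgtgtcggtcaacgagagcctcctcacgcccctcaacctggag
KRT86, chr12:52302139-52302198, plus strand: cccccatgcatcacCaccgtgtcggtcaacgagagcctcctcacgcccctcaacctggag
KRT83, chr12:52321039-52321098, minus strand: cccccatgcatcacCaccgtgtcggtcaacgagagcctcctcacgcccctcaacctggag
KRT85, chr12:52367073-52367132, minus strand: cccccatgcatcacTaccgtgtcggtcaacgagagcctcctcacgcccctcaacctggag
A read that lies wholly within this window and covers the differing base is identical in 3 of the genes. One that lies within it and does not cover that base is identical in all 4. The second, in exon 9, is where KRT81 and KRT86 differed most, with the 31 differing columns in capitals.
KRT81, chr12:52286321-52286380, minus strand: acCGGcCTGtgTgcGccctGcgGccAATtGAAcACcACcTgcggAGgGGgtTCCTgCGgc
KRT86, chr12:52308523-52308582, plus strand: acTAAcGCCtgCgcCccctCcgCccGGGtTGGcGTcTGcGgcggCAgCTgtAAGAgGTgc
The 3 relatives followed KRT81 in being found almost only in A549. Untreated A549 had 211 ± 11.9 CPM of KRT86, 128 ± 15.0 of KRT83 and 54.0 ± 7.35 of KRT85, all far under KRT81. Untreated H1792 had 1 to 10 counts of KRT86, 0 to 2 of KRT83 and 0 of KRT85. Against a floor of 3 counts per library, KRT83 was at least 126-fold and KRT85 at least 53.1-fold lower in untreated H1792. Of the 31-base stretches of KRT86, 39.8% also occur in KRT81, as do 19.0% of those of KRT83 and 10.3% of those of KRT85. Whether part of their A549 counts came from reads of KRT81 was not tested, so these folds are uncertain. With KRT83 and KRT86 added to KRT81, the A549 response was −0.39 (adjusted p = 0.236). The sum is nearly all KRT81, which had a mean of 10260 CPM in untreated A549. It therefore could hardly differ from KRT81 alone and cannot show whether reads were shared.

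Beside the members, 6 other keratins reached 10 counts in a sample: KRT4, KRT15, KRT17, KRT83, KRT85 and KRT86. KRT15, a type I keratin of basal cells, had 9.66, 9.36 and 7.95 CPM in A549 with DMSO and 21.9, 19.96 and 23.3 with RG7112. It rose by 1.28 ± 0.23 on the log2 scale (adjusted p = 0.0184), which made it the other called type I keratin in A549 beside KRT19. In H1792 KRT15 had 2.77 to 4.92 CPM with DMSO and 1.39 to 2.32 with RG7112, and its responses differed between the lines (−2.45 ± 0.43, adjusted p = 0.00401). KRT17, of basal and activated epithelial cells, had 0 to 1 counts in A549 with DMSO, 4 to 11 with RG7112 and none in H1792. KRT4, a keratin of mucosal epithelia, had 9 to 33 counts in A549 with DMSO, 4 to 8 with RG7112 and none in H1792. Of the type I keratins on the list, 2 of 3 tested were called higher in A549 with RG7112 (4.35% of all genes), and of the type II keratins 0 of 8 were called higher or lower (4.35% and 4.03%).

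Proteins that attach keratin filaments to the membrane were followed through a list of 23 desmosome and plakin genes. In A549 with RG7112, 4 of 11 tested were called higher (4.35% of all genes) and 0 lower (4.03%), at a median log2 fold change of 0.20, against −0.015 over all genes tested. ITGB4, the hemidesmosomal integrin chain that binds plectin, rose by 1.17 ± 0.16 (adjusted p = 0.00646), from 209 ± 25.9 to 471 ± 68.2 CPM. DST, the plakin that holds keratins at hemidesmosomes, rose by 1.15 ± 0.19 (adjusted p = 0.0126), and DSC3, a desmosomal cadherin, rose by 2.16 ± 0.34 (adjusted p = 0.0109) from 4.10 ± 0.79 CPM. In H1792, 3 of 9 were called higher (17.7% of all genes) and 0 lower (16.5%), among them ITGA6, the partner chain of ITGB4 (2.45 ± 0.63, adjusted p = 0.0261), PKP4, a plakophilin-like protein of cell junctions (0.84 ± 0.23, adjusted p = 0.0312), and PNN (2.42 ± 0.73, adjusted p = 0.0434). The sizes for ITGA6 and PNN rest on few counts, 7 to 13 and 3 to 12 per H1792 sample with DMSO. Responses differed between the lines for 4 of 11, with 1 higher in H1792 (11.4% of all genes) and 3 lower (10.4%), among them PLEC, the cytolinker plectin, at −1.03 ± 0.15 (adjusted p = 0.00138), ITGB4 at −1.16 ± 0.25 (adjusted p = 0.00929) and DST at −0.95 ± 0.22 (adjusted p = 0.014). In untreated H1792, 6 of 11 were lower than in A549 (26.5% of all genes) and 0 higher (23.2%). They include DSP, the desmoplakin that ties keratins to desmosomes, with 24.4 ± 16.2 CPM in A549 and 0 to 2 counts in H1792, JUP (plakoglobin, −3.08 ± 0.20, adjusted p = 6.2e-05) and ITGB4 (−4.57 ± 0.17, adjusted p = 8.72e-06).

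Proteins that bind or modify keratins were followed through 19 genes. In H1792 with RG7112, 5 of 16 tested were called higher (17.7% of all genes) and 1 lower (16.5%), and in A549 0 of 16 were called higher (4.35%) and 1 lower (4.03%). In H1792, YWHAZ, a 14-3-3 protein, rose by 1.098 ± 0.113 (adjusted p = 0.00298), the kinase CSNK1A1 rose by 1.13 ± 0.14 (adjusted p = 0.00375), and OGT, the enzyme that adds O-linked N-acetylglucosamine to proteins, keratins included, rose by 1.55 ± 0.22 (adjusted p = 0.00482). In A549 the one that fell was YWHAE, another 14-3-3 protein (−0.53 ± 0.12, adjusted p = 0.0423). Between the untreated lines, 2 of 17 were higher in H1792 (23.2% of all genes), among them the small heat shock protein HSPB1 (1.91 ± 0.17, adjusted p = 0.000187), and 6 were lower (26.5%), among them SQSTM1, a cargo receptor found with keratin in hepatic inclusion bodies (−2.62 ± 0.16, adjusted p = 4.57e-05), and CFLAR (−1.28 ± 0.15, adjusted p = 0.000562). Responses differed for 8 of 17, with 6 higher (11.4% of all genes) and 2 lower (10.4%) in H1792, among them CSNK1A1 (1.32 ± 0.28, adjusted p = 0.00973), YWHAZ (1.32 ± 0.29, adjusted p = 0.0108) and HSPA8 (0.55 ± 0.14, adjusted p = 0.0175).

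Epithelial transcription and splicing factors were a list of 22 genes, of which 10 could be tested between the untreated lines, 2 higher (23.2% of all genes) and 4 lower (26.5%) in H1792. ELF3, an ETS factor of epithelia, had 809 ± 50.2 CPM in A549 and 2.47 ± 0.60 in H1792 (−8.43 ± 0.17, adjusted p = 2.55e-06). The AP-1 subunit FOSL1 was higher in H1792 (3.09 ± 0.26, adjusted p = 0.000164), and FOXA1, a pioneer factor of lung epithelium, was lower (−1.63 ± 0.26, adjusted p = 0.00229). With RG7112 the AP-1 subunit FOS fell in A549 by 2.29 ± 0.44 (adjusted p = 0.0236), the 1 of 12 tested that was called lower (4.03% of all genes). FOXA1 rose in H1792 by 1.14 ± 0.29 (adjusted p = 0.0253), the 1 of 6 called higher (17.7%). The response of FOS differed between the lines (2.72 ± 0.51, adjusted p = 0.00524). Among 13 genes of other cytoplasmic intermediate filaments, 1 of 6 was higher in untreated H1792 (23.2% of all genes), VIM (1.77 ± 0.08, adjusted p = 1.4e-05), and 3 were lower (26.5%). NEFL, a neurofilament subunit, rose by 2.52 ± 0.27 in A549 with RG7112 (adjusted p = 0.00262), 1 of 6 tested (4.35% of all genes). In H1792, 0 of 4 were called higher (17.7%) or lower (16.5%). No gene of the cornified envelope list (18 genes) had enough counts to be tested.

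The labelled cell type was checked against marker lists. Summed over 13 epithelial markers, which include KRT7, KRT8, KRT18 and KRT19, A549 had 15330 to 25150 CPM and H1792 1180 to 2231. These keratins make up most of the sum in both lines, so it repeats their difference and is no separate check. In untreated H1792, 8 of 9 tested markers were lower (26.5% of all genes), those keratins among them. Of the 9 markers that are not keratins, ELF3 was at 752 to 1003 CPM in A549 and at most 3.17 in H1792. TJP1, a tight junction scaffold, had 36.8 to 110 CPM in A549 and 25.2 to 102 in H1792, where it rose with RG7112 (1.60 ± 0.17, adjusted p = 0.00305). TJP1 was the 1 of 9 tested epithelial markers, keratins included, called higher in H1792 (17.7% of all genes), and 5 were called lower (16.5%). KRT7, KRT8, KRT18 and KRT19 are among those 5. In A549, 1 of 11 was called higher (4.35%), KRT19, and 0 lower (4.03%). The mucin MUC1 and the junction genes CLDN3, CLDN4, CLDN7 and OCLN reached at most 39.5 CPM in A549 and 7.83 in H1792. MUC1 had 13.4 ± 1.9 CPM with DMSO and 28.0 ± 10.0 with RG7112 in A549, and 5.86 ± 1.83 and 1.81 ± 0.04 in H1792. Its responses differed between the lines (−2.74 ± 0.46, adjusted p = 0.00307). CDH1 (E-cadherin) had 1.74 to 21.9 CPM in A549 and 0 to 1.06 in H1792, and EPCAM 0 to 1.39 and 1.31 to 6.21. Summed over 8 fibroblast markers, H1792 had 1121 to 1429 CPM and A549 9.50 to 22.5. COL1A2 (1107 to 1132 CPM) and COL1A1 (252 to 295 CPM) made up nearly all of this in untreated H1792, whereas LUM and THY1 were at 0 there and DCN reached at most 1.31 CPM. Between the untreated lines 2 of 3 tested fibroblast markers were higher in H1792 (23.2% of all genes) and 1 lower (26.5%). PDGFRB rose in H1792 with RG7112 (2.99 ± 0.73, adjusted p = 0.022), 1 of 4 called higher (17.7% of all genes). Its size rests on few counts, 0 to 4 per sample with DMSO and 16 to 27 with RG7112. Few genes of the other marker lists could be tested. Of the alveolar markers ABCA3 was higher in untreated H1792 (2.87 ± 0.84, adjusted p = 0.0269) and none was called with RG7112, of the leukocyte markers CD14 was lower (−4.61 ± 0.37, adjusted p = 0.000132), of the basal and squamous markers KRT15 was lower (−1.28 ± 0.35, adjusted p = 0.02), and no endothelial marker had enough counts. The size of the CD14 difference rests on 1 to 5 counts per untreated H1792 sample. The surfactant gene SFTPC, the leukocyte gene PTPRC and the endothelial gene PECAM1 were at or under 0.542 CPM in every sample. Other genes of the alveolar and leukocyte lists were higher. ABCA3 had 0.994 to 106 CPM in A549 and 7.66 to 144 in H1792, and CD14 had 13.3 to 23.7 in A549. CD68 had 10.7 to 104 CPM in A549 and 7.22 to 18.3 in H1792, and its responses differed between the lines (−2.19 ± 0.66, adjusted p = 0.0384). The part of these markers in the lower keratin levels of H1792 was not tested.

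The genes whose pattern over the 12 samples was most like that of each member were found by the smallest root mean square difference of centred log2(CPM + 1), among genes with a symbol. They were SLC29A4 (0.18) and COL4A2 (0.21) for KRT8, CYHR1 (0.13) and TMEM205 (0.14) for KRT7, and MORC4 (0.27) and ABCC4 (0.28) for KRT80. For KRT18 they were SNCG (0.26) and TCIRG1 (0.27), and for KRT19 TP53I11 (0.23) and GGT1 (0.25). KRT81 had no gene nearly as close, with GCNT3 at 1.49 and CPLX2 at 1.69. The SD over the 12 samples was 5.81 for KRT81 and 0.71 to 2.76 for the other members. The likeness rests mainly on the difference between the lines and is a description of these 12 libraries.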

How the data were processed

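Poly-A RNA was sequenced from both ends (38 nt per the labels, whereas the study's methods give a longer read). According to the study's methods, the authors estimated transcript abundance with kallisto v0.45.0 on the Ensembl GRCh38 transcriptome and added it up to genes, and they deposited estimated counts (expected counts) per gene as whole numbers without normalization. All 12 columns were matched to samples. Identifiers were named through GENCODE v29, and 2613 of the 20595 were not found there. Members and lists were chosen with earlier results of these data known.

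Low genes were removed with filterByExpr (a minimum count of 10 and a minimum total of 15). The remaining counts were TMM-normalized and fitted with the robust quasi-likelihood test of edgeR 4.0.16 in R 4.3.3, within each cell line for the response, in the DMSO samples for the cell lines and over all 12 samples for the interaction. Calls had a Benjamini-Hochberg adjusted p under 0.05 over all genes tested, and DEGs also an absolute log2 fold change over 1. The procedure was tested on simulated counts. The alternatives were DESeq2 1.42.0, limma-trend (limma 3.58.1, prior count 2), RLE factors, library size only, other filters, all samples in one fit, a loess GC correction (span 0.5), a replicate block, KRT81 with KRT83 and KRT86 added, a DEG threshold, RG7112 in place of DMSO samples and each sample left out. Leaving out both A549 samples numbered 3 was added after seeing the data.

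Values are mean ± SD over 3 replicates, and fold changes are given with their SE. Named genes were the members, CDKN1A and MDM2, other keratins with at least 10 counts in a sample, up to 3 called genes with the smallest p per list and comparison, and the 2 genes most like each member. Floors of 3 counts cover counting error only, since the counts do not separate duplicate reads from molecules.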

Additional observations from a re-analysis of the deposited data

Results flagged for a closer look

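Responses to RG7112 that differed between the cell lines by the test of the difference itself were those of KRT19 (H1792 minus A549 −1.93 ± 0.23 on the log2 scale, SE, adjusted p = 0.00046), KRT7 (−1.21 ± 0.29, adjusted p = 0.0149) and KRT8 (−0.77 ± 0.20, adjusted p = 0.0198). KRT19 was higher with the drug in 3 of 3 A549 samples and lower in 3 of 3 H1792 samples than in any DMSO sample of the same line. For KRT7 and KRT8 only the H1792 treatments were separated. Over all genes tested, the treatments did not overlap for 32.4% in A549 and 53.3% in H1792. The A549 samples numbered 3 moved with part of these values, with the highest KRT7 (904.5 CPM) and KRT8 (15820 CPM) in RG7112 replicate 3. Without both of those samples the KRT7, KRT8 and KRT19 differences still passed.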

How the results depend on the processing

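The 6 lower levels in untreated H1792 were called under every alternative in which they could be tested (KRT81 could not with at least 10 counts in every sample), except that KRT7 lost its call with the GC correction (−0.37, adjusted p = 0.0693) and with block and GC together (−0.38, adjusted p = 0.108). In A549, the main count of 1 called member became 2 with the replicate block, 2 with the GC correction, 2 with both together and 2 without both A549 samples numbered 3, KRT81 being the addition. Leaving out single samples gave 1 in each case. In H1792, the main count of 4 became 1 with the DEG threshold and 1 with the replicate block and GC correction together, KRT18 in both cases, and was 3 to 4 with single samples left out. For the difference between the lines, the main count of 3 became 5 with at least 10 counts in every sample, and 2 to 5 with single samples left out. It was highest without A549 DMSO replicate 3, where KRT18 and KRT80 were added. The KRT8 difference lost its call under library size only (−0.37, adjusted p = 0.0527), both GC corrections and 5 single samples left out. Direction turned for values that had not passed the test: KRT8 in A549 under the GC correction (−0.0073) and under the replicate block with the GC correction (−0.0081), KRT18 in A549 without DMSO replicate 3 (0.25), RG7112 replicate 1 (0.01) or RG7112 replicate 2 (0.087), with a range of −0.35 to 0.25 over the samples left out, and the KRT81 difference without H1792 DMSO replicate 1 (0.049), with a range of −1.22 to 0.049. The cause was not tested. Pseudogenes had no counts used here, so only KRT83 and KRT86 were added to a member.

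Samples of the 2 treatments share replicate numbers, but the sources used here do not say whether they were handled together. Same-numbered A549 samples deviated with r = 0.115, 0.0609 and 0.273, and H1792 samples with −0.0238, −0.0018 and 0.0035. Not every sample correlated best with its own number. The A549 samples numbered 3 had r = 0.273 with each other and −0.209 to −0.132 with A549 samples of the other treatment and other numbers. What they share was not tested. With the replicate block, KRT81 was called in A549 (−0.39, adjusted p = 0.0306), the KRT19 fall in H1792 was not (adjusted p = 0.0911), the difference between the lines was called for KRT18 (−1.06, adjusted p = 0.0164) and, with the GC correction added, for KRT80 (1.55, adjusted p = 0.0302), and the count over all genes was 938 in place of 900 in A549 and 1840 in place of 3384 in H1792. With the GC correction, 1017 genes were called in A549, 2553 in H1792 and 1735 in place of 2539 for the difference. Depth limits KRT81 in H1792, with 3 to 16 counts.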
